A study of Mus musculus with 9 samples.

Results

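Matrix metalloproteinases (MMPs), ADAMs, ADAMTS proteinases, their ADAMTS-like relatives (ADAMTSL) and the tissue inhibitors of metalloproteinases (TIMPs) were examined in mouse quadriceps and heart. Members were taken by gene symbol alone: Mmp, Adam, Adamts, Adamtsl or Timp followed by a number and at most 1 letter. This gave 84 of the 24537 gene names in the table of quadriceps against heart and 16 of the 587 genes in the table of transverse aortic constriction (TAC) against sham. RNA was sequenced from quadriceps muscle after sham surgery, quadriceps muscle after TAC and heart after sham surgery, with 3 libraries in each group. All tissue was collected 12 weeks after the operation from mice given as C57Bl6 by the series' record and as male C57Bl/6JCrl by the study's methods, 8 weeks old at surgery by that record, and neither source names a transgene or deletion in these animals. TAC was made with a 27 gauge needle and narrows the aorta, so that the heart pumps against a raised pressure. The TAC libraries are labelled as cachectic, and no heart library after TAC was analysed here.

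Metalloproteinases cut proteins with the help of a zinc ion. MMPs cut collagens, laminins and other proteins of the extracellular matrix, ADAMs sit in the membrane and release the outer part of other membrane proteins, and ADAMTS proteinases are secreted and cut proteoglycans, procollagens and further matrix proteins. ADAMTSL proteins resemble ADAMTS proteinases but lack the catalytic domain, and TIMPs bind the active site of the enzymes and block it. In muscle and heart much of this set comes from fibroblasts, endothelium and immune cells between the fibres. In such bulk tissue fewer cells of a type and less RNA per cell cannot be told apart. Many of the enzymes are made as inactive precursors, so a transcript level is not an activity.

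Library totals ran from 23383452 to 38382751 counts in the sham groups and were 48614494 and 48999600 in TAC libraries 1 and 2, while the total of the remaining TAC library, number 4, was not used here. The TAC table holds only genes annotated as extracellular, which carry 689630 to 1326011 counts per library, and the TMM scaling (trimmed mean of M values) of that comparison therefore refers to these genes. Over the 586 genes tested, the log2 fold changes had a median of 0.03 with TMM and of -0.63 with library totals. In the comparison of tissues these medians were -0.06 and -0.80 over 24280 transcripts. For the members, a direction that differs between the scalings is given as such below. Partner, substrate and marker genes were read with TMM only. The tissue labels held for their defining genes: all 6 quadriceps fibre markers were higher in quadriceps and all 6 cardiomyocyte markers were higher in heart. The cardiomyocyte marker Myl7 varied widely among the heart libraries, with 2075, 164 and 3 counts, against 1, 0 and 0 in quadriceps. What this spread means for the members' values in heart was not tested. The summed level of 5 adipocyte markers ran from 14.3 to 115 TMM-scaled CPM (counts scaled to a library of fixed size) among the sham quadriceps libraries, against 0.419 to 1.53 CPM in heart. The TAC comparison and the tissue comparison use the same 3 sham quadriceps libraries.

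Promoter windows are shown first, because members with near-zero counts and abundant members can then be seen side by side. RefSeq gave the 250 bases before the start for 53 of the 84 members (58 windows, GRCm38.p6). The motif TGANTCA, bound by AP-1 factors, was searched on both strands and was present in 12 member windows (20.7%), against 6.75% of all 32851 windows. TATAAA, also searched on both strands, was present in 13 member windows (22.4%), against 12.4% of all windows. Both motifs stood together in 8 member windows (13.8%), against 1.21% of all windows, in Mmp1a, Mmp1b, Mmp3, Mmp7, Mmp10, Mmp13, Mmp20 and Adam29. The 7 MMPs among these lie in 1 cluster on chromosome 9 and are related in sequence, so their windows are not independent. The windows below are printed 5′ to 3′ on the gene's strand for Mmp3 and Mmp13, which hold both motifs and were tested, for Timp4, Adam10 and Mmp14, which are abundant in both tissues and hold neither, and for Adamtsl4, which passed the test after TAC and holds neither. Capitals mark the AP-1 motif and TATAAA.
Mmp3 (chr9:7445572-7445821, + strand): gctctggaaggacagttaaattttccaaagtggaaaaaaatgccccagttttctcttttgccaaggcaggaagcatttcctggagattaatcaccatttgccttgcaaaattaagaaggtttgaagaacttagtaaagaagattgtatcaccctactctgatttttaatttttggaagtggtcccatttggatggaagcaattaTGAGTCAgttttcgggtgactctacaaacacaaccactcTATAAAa
Mmp13 (chr9:7272264-7272513, + strand): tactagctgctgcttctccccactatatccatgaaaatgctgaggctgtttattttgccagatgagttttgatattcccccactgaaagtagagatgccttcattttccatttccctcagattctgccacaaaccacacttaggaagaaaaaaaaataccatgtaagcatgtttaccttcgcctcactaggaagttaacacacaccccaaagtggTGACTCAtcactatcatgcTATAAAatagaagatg
Timp4 (chr6:115252206-115252455, - strand): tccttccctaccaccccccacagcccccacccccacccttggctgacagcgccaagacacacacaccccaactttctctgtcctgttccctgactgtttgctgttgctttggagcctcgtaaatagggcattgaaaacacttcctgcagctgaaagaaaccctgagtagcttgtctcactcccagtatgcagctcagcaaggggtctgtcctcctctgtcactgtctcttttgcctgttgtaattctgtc
Adam10 (chr9:70678732-70678981, + strand): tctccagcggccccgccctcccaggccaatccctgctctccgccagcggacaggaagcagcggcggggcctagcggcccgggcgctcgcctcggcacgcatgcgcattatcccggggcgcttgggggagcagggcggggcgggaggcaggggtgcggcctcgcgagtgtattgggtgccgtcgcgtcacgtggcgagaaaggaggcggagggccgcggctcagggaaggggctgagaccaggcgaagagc
Mmp14 (chr14:54431348-54431597, + strand): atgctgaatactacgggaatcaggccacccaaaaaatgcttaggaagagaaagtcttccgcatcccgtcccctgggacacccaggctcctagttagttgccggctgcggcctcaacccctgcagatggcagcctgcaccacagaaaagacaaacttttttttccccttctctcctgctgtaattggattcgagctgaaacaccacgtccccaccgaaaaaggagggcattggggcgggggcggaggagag
Adamtsl4 (chr3:95687918-95688167, - strand): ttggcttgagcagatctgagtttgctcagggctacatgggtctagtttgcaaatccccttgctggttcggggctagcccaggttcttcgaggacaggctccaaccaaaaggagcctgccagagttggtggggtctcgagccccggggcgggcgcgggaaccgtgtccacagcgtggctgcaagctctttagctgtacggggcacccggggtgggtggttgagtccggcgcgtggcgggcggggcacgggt

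The CpG dinucleotides in these stretches numbered 1 in Mmp3, 1 in Mmp13, 2 in Timp4, 29 in Adam10, 10 in Mmp14 and 17 in Adamtsl4, with a median of 6.5 over the member windows and 6 over all windows. A match of letters is a description of the window and was not tested as a site. Of the 8 members with both motifs, Mmp1a, Mmp1b, Mmp7, Mmp20 and Adam29 had 0 counts in all 6 sham libraries, and Mmp10 reached at most 15 counts in a library. Mmp3, a stromelysin that cuts proteoglycans and activates other MMPs, had 11, 12 and 10 counts in quadriceps and 19, 12 and 5 in heart and was not called between the tissues (adjusted p = 0.0987 with edgeR). The low counts of these members lay beside 2566 to 5738 counts of Timp3 in the same libraries. Low counts were also seen without the motifs: Adam1b, Adam26b and Adam34 had 0 counts and hold neither. Adamts1, with up to 663 counts in a library, holds TATAAA. A link between motifs and levels was not tested.

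Levels of different genes were compared per transcript length, as RPKM (reads per kilobase of transcript, scaled by the library total). Timp3, the inhibitor that stays bound to the matrix, had the highest RPKM of all members in both tissues. It lies at chr10:86300372-86349506 (GRCm38, + strand) within Syn3 on the opposite strand. Its levels were 30.9, 26.5 and 23.5 RPKM in quadriceps and 33.1, 28.5 and 27.4 RPKM in heart. In quadriceps, Adam9 followed with 13.9 RPKM ± 1.94 (SD, n = 3), then Timp2 with 10.2 ± 0.159, Timp4 with 7.69 ± 3.68, Adam10 with 4.25 ± 1.04 and Mmp2 with 3.97 ± 0.415 RPKM. The ranges of Timp3, Adam9 and Timp2 were apart from each other, while Timp2 overlapped with Timp4, and so did each later pair of neighbours down to Mmp14 at rank 10. In heart the order was Timp3, Timp2 at 21.6 ± 2.34, Mmp15 at 18.3 ± 0.324, Mmp2 at 14.2 ± 0.885 and Adam9 at 14.1 ± 0.333 RPKM, where only Mmp2 and Adam9 overlapped among these neighbours. Mmp15, a membrane-anchored MMP, thus stood at rank 3 in heart, while its level in quadriceps was 1.58 ± 0.0832 RPKM. The 4 TIMPs together made up 48.6%, 50.5% and 41.5% of the summed RPKM of all members in the quadriceps libraries and 29.1%, 26.2% and 26.5% in heart, without overlap. The share of the MMPs went the other way, at 12.4%, 12.8% and 13.2% in quadriceps and 22.5%, 23.6% and 22.9% in heart. These shares are free of the scaling between libraries.

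**Figure D1:**
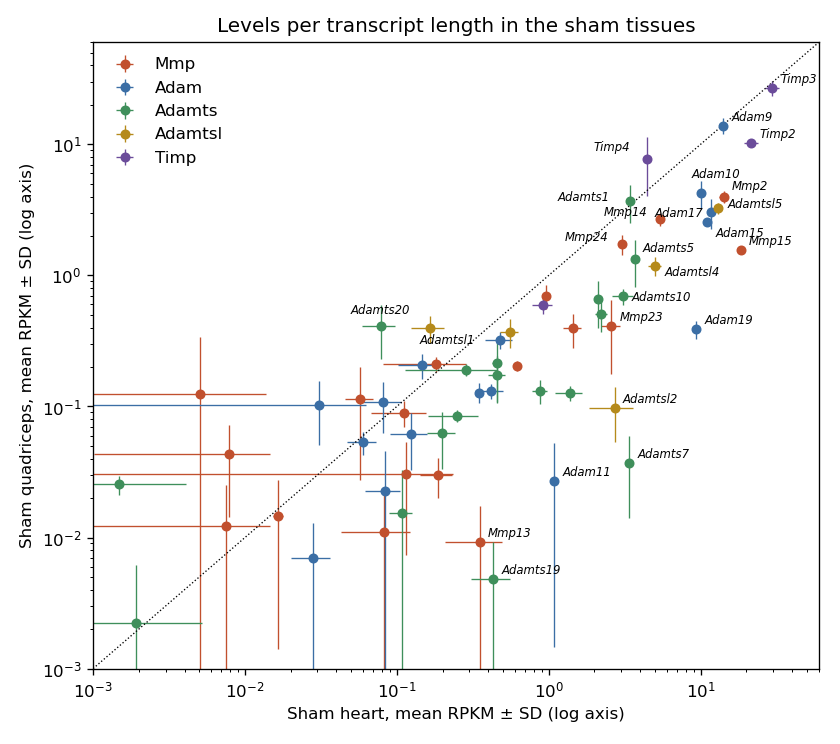
Mean RPKM in sham heart (horizontal log axis) against mean RPKM in sham quadriceps (vertical log axis) for 62 members, coloured by family, with bars for the SD over 3 libraries and a dotted line at equal values. The other 22 members had a mean of 0 in a tissue and are not drawn. Most members lie below the line, Timp4 and Adamts20 lie above it, and Timp3 is at the top right with 27.0 and 29.7 RPKM.

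Between the sham tissues, more members were lower in quadriceps than were higher. Of the 54 members tested, 31 were lower and 10 were higher in quadriceps (edgeR quasi-likelihood test, Benjamini-Hochberg adjusted p under 0.05 over all transcripts), and 13 were not called. Over all transcripts tested, 34.4% were lower and 32.2% were higher. With library totals the counts were 38 lower and 3 higher, where 62.6% of all transcripts were lower and 13.3% higher. The members' median log2 fold change, quadriceps minus heart, was -0.77 with TMM and -1.51 with totals. The groups did not overlap for 43 of the 54 members, against 71.7% of 14906 genes. A further 30 members did not pass the filter on low counts: 17 had 0 counts in all 6 libraries, 5 had 1 to 3 counts in all and 8 had more, with at most 20 counts in a library. Of the 54, 7 passed the filter through 1 tissue alone, so their difference is in part set by the filter.

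The plot of tissue fold changes shows the order of the members. Levels in the next paragraphs are TMM-scaled CPM, each fold change is quadriceps minus heart on the log2 scale with its standard error (SE), and each adjusted p is from edgeR. Where a gene overlaps another on the opposite strand, reads of the pair cannot be told apart without strand, and the strand setting of the counting is not given in the sources used here. Besides the members flagged below, Adam8, Adam15, Adam19, Adamts4, Adamts8, Adamts9, Mmp24 and Timp3 overlap an exon of a gene on the opposite strand.

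**Figure D2:**
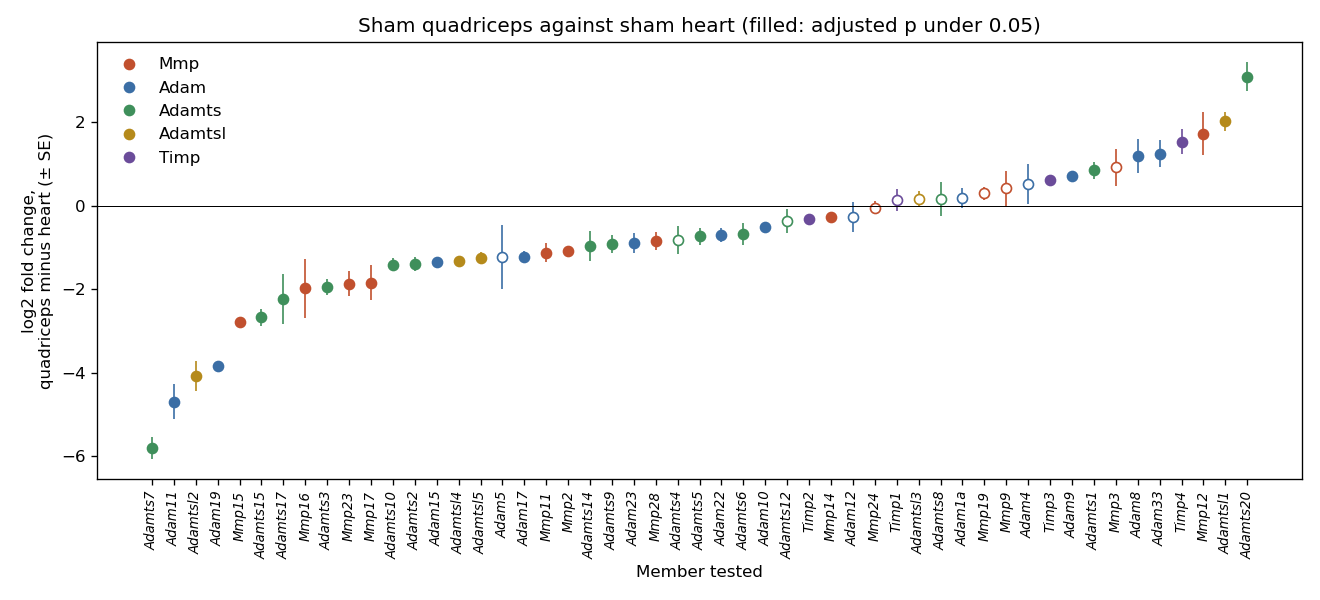
Log2 fold change, sham quadriceps minus sham heart, with TMM scaling (vertical axis, bars ± SE) for 51 of the 54 tested members (horizontal axis), ordered by value and coloured by family. Filled points passed an adjusted p of 0.05. Adamts16, Adamts19 and Mmp13, with near-zero counts in a tissue, are left out. The values run from -5.82 in Adamts7 to 3.10 in Adamts20.

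Among the inhibitors, Timp4, which is known for a narrow distribution that includes heart, muscle and fat, had 18.2, 16.9 and 6.72 CPM in quadriceps and 4.89, 4.81 and 4.82 CPM in heart. Timp4 overlaps an exon of Syn2 on the opposite strand. Every quadriceps library was above every heart library, and quadriceps library 3 was far below the other two. The difference was 1.54 (SE 0.30, adjusted p = 0.0014), and with totals it was 0.80 (adjusted p = 0.0547). Adipoq, the adipocyte hormone adiponectin, had 43.5, 17.8 and 5.31 CPM in the same quadriceps libraries and at most 0.546 CPM in heart, and its part in the Timp4 values was not tested. Timp3 had 174, 171 and 145 CPM in quadriceps and 120, 102 and 98.9 CPM in heart, also without overlap. Its difference of 0.61 (SE 0.12, adjusted p = 0.00162) turned to -0.14 with totals. Timp2, an inhibitor that also takes part in the activation of pro-MMP2 by Mmp14, was lower in quadriceps with 43.6, 51.4 and 49.4 CPM against 68.3, 56.1 and 56.1 CPM (difference -0.32, SE 0.12, adjusted p = 0.0342). The call was lost without quadriceps library 1 or 3 or heart library 1, where its adjusted p rose to as much as 0.156. Timp1, the inducible TIMP, was low in both tissues, with 0.627 to 0.735 CPM in quadriceps and 0.512 to 0.676 CPM in heart, and was not called (adjusted p = 0.672).

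The gelatinase Mmp2, which cuts denatured collagen and basement membrane collagen, had 16.1, 15.0 and 15.9 CPM in quadriceps and 34.9, 34.5 and 31.1 CPM in heart. It was lower in quadriceps by every pair of libraries, with a difference of -1.09 (SE 0.10, adjusted p = 9.79e-06). The other gelatinase, Mmp9, abundant in neutrophils and macrophages, had 7 to 11 counts in quadriceps and 8 to 18 counts in heart and was not called (adjusted p = 0.398). Mmp8, the neutrophil collagenase, had 12 counts in all 6 libraries together. The 8 neutrophil markers summed to 0.293 to 0.509 CPM in quadriceps and 0.159 to 0.279 CPM in heart, near 0 in both. Mmp13, a collagenase, had 1, 0 and 1 counts in quadriceps and 21, 51 and 30 in heart, a ratio of 24.9 with a 95% counting interval of 6.72 to 208 that covers counting error only.

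Of the membrane-type MMPs, 4 of the 5 tested were lower in quadriceps (Mmp14, Mmp15, Mmp16 and Mmp17) and Mmp24 was not called. Mmp16 had 3, 2 and 0 counts in quadriceps and 13, 22 and 7 in heart, so it passed the filter through the heart alone, and its call was lost when some of the libraries were left out (adjusted p up to 0.101). Mmp15 was the most different of the abundant ones, with 8.38, 9.66 and 8.42 CPM in quadriceps and 62.0, 61.0 and 59.7 CPM in heart. This is a difference of -2.79 (SE 0.10, adjusted p = 3.12e-08), or 6.90-fold. Mmp14, the main activator of pro-MMP2, differed little, with 13.3, 12.3 and 13.8 CPM against 15.1, 15.9 and 16.5 CPM (difference -0.27, SE 0.10, adjusted p = 0.0354). The call was lost without any 1 of the heart libraries and without quadriceps library 2 or 3, with an adjusted p of up to 0.129. Mmp11, grouped with the stromelysins, had 1.40, 0.878 and 1.19 CPM in quadriceps and 2.90, 2.51 and 2.17 CPM in heart and was lower in quadriceps (difference -1.12, adjusted p = 0.00151). Mmp11 overlaps an exon of Chchd10 on the opposite strand. Mmp12, the macrophage elastase, had 0.919, 0.418 and 0.226 CPM in quadriceps and 0.147, 0.199 and 0.140 CPM in heart. It was the only MMP called higher in quadriceps (difference 1.73, SE 0.51, adjusted p = 0.0138). The call rested on 4 to 25 counts a library, did not hold with totals (adjusted p = 0.131) or without quadriceps library 1 (adjusted p = 0.0938), and Mmp12 shares exonic sequence with Mmp1b on the opposite strand. The macrophage markers moved the other way, with 7 of 8 lower in quadriceps and a summed level of 46.9 to 69.5 CPM against 107 to 110 CPM in heart. Of all transcripts tested with TMM, 34.4% were lower.

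Among the ADAMs, the sheddases Adam10, Adam15 and Adam17 were lower in quadriceps and Adam9 was higher. Adam17, which releases tumour necrosis factor and ligands of the epidermal growth factor receptor, had 20.9, 15.0 and 16.2 CPM in quadriceps and 40.1, 40.6 and 40.7 CPM in heart. Its difference was -1.22 (SE 0.13, adjusted p = 3.08e-05), with an exonic overlap with Iah1 on the opposite strand. Adam10, the sheddase of Notch and of many adhesion proteins, had 29.9, 21.8 and 23.6 CPM against 35.0, 35.7 and 36.5 CPM (difference -0.51, SE 0.13, adjusted p = 0.00592). Adam9 had 69.0, 65.1 and 82.6 CPM in quadriceps and 43.0, 44.2 and 44.0 CPM in heart, a difference of 0.72 (SE 0.11, adjusted p = 0.000319) that became -0.03 with totals. Per transcript length, Adam9 and Adam17 stood at 14.1 ± 0.333 and 11.8 ± 0.192 RPKM in heart and at 13.9 ± 1.94 and 3.04 ± 0.771 RPKM in quadriceps (SD, n = 3).

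Adam19, a sheddase of neuregulins known for its part in heart valve and septum development, showed the largest difference of the abundant ADAMs. It had 2.72, 3.09 and 3.84 CPM in quadriceps and 43.5, 47.7 and 46.9 CPM in heart (difference -3.85, SE 0.14, adjusted p = 2.48e-08). Its substrate Nrg1 was also lower in quadriceps, with 0 or 1 counts a library there, so Nrg1 passed the filter through the heart alone. Adam11, a member without a working catalytic site that is known from the nervous system, had 5, 0 and 6 counts in quadriceps and 195, 221 and 184 in heart (difference -4.70, SE 0.43, adjusted p = 9.86e-06). Adam22 and Adam23, which also lack a working catalytic site, were lower in quadriceps by 0.69 and 0.89 on the log2 scale, with adjusted p of 0.00526 and 0.0082. Adam33 was higher in quadriceps at 0.678 to 0.956 CPM against 0.278 to 0.483 CPM (difference 1.25, adjusted p = 0.00661), but with totals the difference was 0.51 (adjusted p = 0.18). Adam8, a leukocyte ADAM, was called higher with 5 to 16 counts against 6 to 11 (adjusted p = 0.0298), and was not called without library 1 or 2 of either tissue (adjusted p up to 0.127), with totals (difference 0.46 against 1.19, adjusted p = 0.357) or by DESeq2 (adjusted p = 0.074). Adam12, which is expressed in regenerating muscle, had 9 to 23 counts in quadriceps and 27 to 41 in heart and was not called (adjusted p = 0.521). Of the 33 ADAMs listed, 19 were not tested, and 13 of these had 0 counts in every library. Most of the 13 are known from testis or epididymis.

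The ADAMTS family held the widest differences. Adamts7, which cuts cartilage oligomeric matrix protein, had 8, 2 and 7 counts in quadriceps and 729, 679 and 588 in heart, or 0.294, 0.0836 and 0.396 CPM against 15.3, 13.5 and 13.7 CPM. Its difference of -5.82 (SE 0.26, adjusted p = 9.76e-08) was the lowest fitted value of the members, and Adamts7 overlaps an exon of Tbc1d2b on the opposite strand. With TMM, the Adamts7 substrate Comp was higher in quadriceps by 0.70 (adjusted p = 0.0489), and it was not read with totals. Adamts12, the other COMP-cleaving member, was not called (difference -0.37, adjusted p = 0.272). Adamts19 had 1, 0 and 1 counts in quadriceps and 101, 88 and 50 in heart, a ratio of 58.4 with a 95% counting interval of 16.0 to 485. With Adamts19, Adamts6, Adamts10 and Adamts17, all 4 microfibril-associated members were lower in quadriceps, 2 of them having passed the filter through the heart alone, and the call of Adamts6 was lost when some of the libraries were left out (adjusted p up to 0.123). Adamts10, which binds fibrillin microfibrils, had 4.08, 3.55 and 4.01 CPM against 12.0, 10.2 and 8.69 CPM (difference -1.41, SE 0.15, adjusted p = 2.87e-05). Fbn1 and Fbn2, the fibrillins of these microfibrils, were lower in quadriceps by 1.53 and 5.08 on the log2 scale. Fbn2 had 1, 1 and 3 counts in quadriceps and 171, 116 and 80 in heart, so it passed the filter through the heart alone.

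All 3 procollagen N-proteinases, which trim the amino end of fibrillar procollagens, were lower in quadriceps. Adamts2 had 5.51, 3.59 and 5.09 CPM in quadriceps and 13.5, 12.6 and 11.1 CPM in heart (difference -1.39, SE 0.16, adjusted p = 5.59e-05). Adamts3 differed by -1.95 (SE 0.18, adjusted p = 1.29e-05) and Adamts14 by -0.96 (SE 0.36, adjusted p = 0.0403, and up to 0.127 when a library was left out). The proteoglycanases were mixed: of 7 tested, Adamts5, Adamts9 and Adamts15 were lower, Adamts1 and Adamts20 were higher, and Adamts4 and Adamts8 were not called. Adamts15 had 0.993, 1.09 and 0.848 CPM against 7.79, 5.37 and 5.75 CPM (difference -2.67, SE 0.21, adjusted p = 3.77e-06). Adamts20, known for its part in melanoblast development, went the opposite way with 3.42, 2.84 and 6.39 CPM in quadriceps and 0.504, 0.576 and 0.349 CPM in heart. The groups were far apart, with a difference of 3.10 (SE 0.35, adjusted p = 3.88e-05) and 2.35 with totals. Adamts1 had 17.0, 21.0 and 32.7 CPM against 12.3, 13.2 and 13.5 CPM (difference 0.85, adjusted p = 0.00514), and 0.094 with totals (adjusted p = 0.684). Vcan, the versican that these enzymes cut, was lower in quadriceps at 3.76 to 6.69 CPM against 18.2 to 28.3 CPM (adjusted p = 4.08e-05). Adamts16 had 7, 4 and 6 counts in quadriceps and 0 in every heart library, at least 3.97-fold higher in quadriceps against 3 counts in each heart library.

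Of the 5 ADAMTSL members, Adamtsl2, Adamtsl4 and Adamtsl5 were lower in quadriceps, Adamtsl1 was higher and Adamtsl3 was not called. Adamtsl2, a microfibril protein that binds a latent TGF-β binding protein, had 0.478, 0.209 and 0.509 CPM in quadriceps and 9.03, 6.64 and 4.59 CPM in heart (difference -4.09, SE 0.36, adjusted p = 8.3e-06). Adamtsl4, which promotes fibrillin microfibril assembly, had 6.80, 5.77 and 5.93 CPM against 17.4, 14.3 and 14.8 CPM (difference -1.33, SE 0.12, adjusted p = 1.27e-05). Adamtsl1 had 4.60, 4.31 and 3.16 CPM in quadriceps and 0.966, 1.23 and 0.768 CPM in heart. Its difference of 2.02 (SE 0.22, adjusted p = 3.66e-05) remained 1.28 with totals (adjusted p = 0.00158).

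With TMM, more of the genes that act on the members were called lower in quadriceps than higher. Of 30 partner genes (activators, chaperones, other inhibitors and related proteinases), 25 were tested, 16 were lower and 2 were higher. Among all transcripts tested, the shares were 34.4% lower and 32.2% higher. Tll2 and Tspan10, among the lower partners, had 0 or 1 counts a library in quadriceps and passed the filter through the heart alone. Furin, the convertase that activates membrane-type MMPs and ADAMs, differed by -1.60, Reck, a membrane-anchored inhibitor of MMPs, by -0.92, and Lrp1, the receptor that takes up MMPs and TIMPs, by -2.09. Plau, the urokinase that starts plasmin-driven MMP activation, was higher with 11.5 to 13.6 CPM in quadriceps and 4.01 to 4.33 CPM in heart (difference 1.57, adjusted p = 2.5e-06). The other partner called higher was Tspan14, a tetraspanin that carries Adam10 (difference 0.57, adjusted p = 0.00162). Its raw counts were 220, 186 and 123 in quadriceps and 248, 264 and 213 in heart. Tspan14 and the other genes of these lists were read with TMM only. For comparison, the larger difference of the member Adam9, 0.72 with TMM, became -0.03 with totals. Of 23 substrate genes, 19 were tested, 13 were lower and 1, Comp, was higher. Of the 13, Fbn2, Nrg1, Tgfa and Tnf had at most 5 counts in a quadriceps library and passed the filter through the heart alone. The basement membrane collagens Col4a1 and Col4a2 differed by -2.53 and -2.46, while Col1a2, Col3a1, Col5a2, Dcn and Fn1 were not called. Of the marker lists, all 5 endothelial markers and 4 of 8 fibroblast markers were lower in quadriceps. Called higher were 5 of 6 tendon markers, 2 of 3 Schwann cell markers and both satellite cell markers. The tendon marker Mkx and the satellite cell markers Myf5 and Pax7 had at most 5 counts in a heart library. These genes passed the filter through quadriceps alone, so their difference is in part set by the filter. Of 3 smooth muscle markers, 1 was lower. Their part in the members' differences was not tested.

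In quadriceps after TAC, few members passed the test, and members of the same family lay on both sides of 0. Of the 16 members, Adam9 and Adamtsl4 were higher and 0 were lower (edgeR quasi-likelihood test, Benjamini-Hochberg adjusted p under 0.05 over the 586 genes), against 17.7% of all genes higher and 11.9% lower. At an unadjusted p under 0.05 the counts were 5 higher and 3 lower, and DESeq2 called 3 higher and 0 lower after adjustment. With library totals of 5 libraries, 0 members were higher and 5 were lower (Mmp2, Mmp19, Timp2, Adam17 and Adamts3), where 3.41% of all genes were higher and 30.7% lower. The median log2 fold change of the members was 0.07 with TMM and -0.56 with totals, close to the medians of all genes. The groups did not overlap for 10 of the 16, against 47.3% of all genes tested. Values below are normalized counts, that is counts scaled by TMM to the mean library. TAC library 4 carries a number that the sample titles do not, and was used as a replicate of its group.

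**Figure D3:**
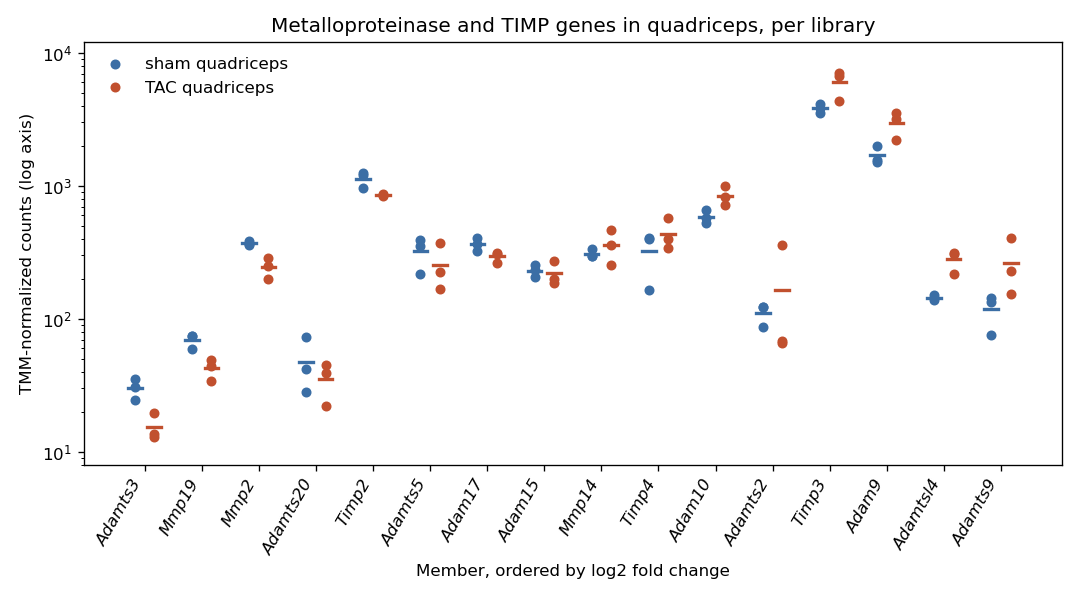
Normalized counts (vertical log axis) of the 16 members in quadriceps, with 1 point per library, 3 sham and 3 TAC libraries, and a line at each group mean. Members are ordered from the lowest to the highest fold change. The TAC points of Mmp2, Mmp19, Adamts3, Timp2 and Adam17 lie below all sham points, and those of Adam9, Adamtsl4, Timp3, Adam10 and Adamts9 lie above.

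Adamtsl4 (chr3:95676201-95687917, GRCm38, - strand) had 150, 139 and 144 normalized counts after sham surgery and 315, 310 and 218 after TAC. Every TAC library was above every sham library, and the sham libraries were close together. It rose by 0.96 on the log2 scale (SE 0.24, adjusted p = 0.0206), or 1.94-fold. Adam9 (chr8:24949611-25016927, GRCm38, - strand) had 1522, 1569 and 2005 after sham surgery and 3537, 3172 and 2217 after TAC. The groups did not overlap, although TAC library 4 lay near the highest sham library. It rose by 0.81 (SE 0.23, adjusted p = 0.0341), or 1.75-fold. Without any 1 of the sham libraries, or without TAC library 1, neither was called, and without TAC library 2 Adam9 was not called, with adjusted p of up to 0.0848 for Adamtsl4 and 0.133 for Adam9. With library totals the fold changes were 0.46 and 0.35, with adjusted p of 0.195 and 0.204.

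Among the inhibitors, Timp3 had 3838, 4122 and 3528 normalized counts after sham surgery and 7016, 6726 and 4319 after TAC. All TAC libraries were above the sham libraries, library 4 by the least. Its log2 fold change was 0.65 (SE 0.23, adjusted p = 0.0651), and 0.20 with totals. Without TAC library 4 it passed at 0.76 (adjusted p = 0.0284). Timp2 had 964, 1242 and 1202 after sham surgery and 873, 851 and 843 after TAC. The TAC values were close together and below all sham values, with a log2 fold change of -0.41 (SE 0.19, adjusted p = 0.146) that passed with totals at -1.03 (adjusted p = 0.0108). Timp4 had 402, 409 and 164 after sham surgery and 343, 396 and 576 after TAC, so that the groups overlapped (log2 fold change 0.43, adjusted p = 0.43). Adipoq varied in the same libraries, with 962, 429 and 129 normalized counts after sham surgery and 523, 114 and 708 after TAC, and sham library 3 was lowest for Timp4 as well. The adipocyte markers in the table, 3 of 5, were not called and summed to 415 to 2860 after TAC and 315 to 2302 after sham surgery. Their part in the Timp4 values was not tested.

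Of the MMPs, Mmp2 had 357, 364 and 388 normalized counts after sham surgery and 287, 199 and 250 after TAC. All TAC values were lower, with a log2 fold change of -0.59 (SE 0.23, adjusted p = 0.0873) and -1.25 with totals (adjusted p = 0.0164). Mmp19, an MMP that cuts basement membrane proteins, had 74.0, 73.8 and 59.1 after sham surgery and 44.6, 34.3 and 49.1 after TAC. It too lay lower in every TAC library, at -0.70 (SE 0.26, adjusted p = 0.0751) and -1.46 with totals (adjusted p = 0.0179). Mmp19 overlaps an exon of Tmem198b on the opposite strand. Mmp14 had 295, 297 and 335 after sham surgery and 464, 360 and 253 after TAC. These groups overlapped, and the fold change of 0.22 (adjusted p = 0.572) was -0.23 with totals.

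Of the other sheddases, Adam10 had 662, 528 and 573 normalized counts after sham surgery and 1004, 819 and 716 after TAC. The TAC libraries were all above the sham libraries, and the log2 fold change was 0.53 (SE 0.22, adjusted p = 0.103), but -0.02 with totals. Adam17 had 405, 325 and 363 against 265, 308 and 314, lower in every TAC library, with -0.30 (SE 0.22, adjusted p = 0.336) and -1.004 with totals (adjusted p = 0.0343). Adam15 overlapped between the groups, at 206, 233 and 253 against 187, 272 and 201. Hbegf, a growth factor precursor that these enzymes release, was the 1 substrate of the list that rose with TMM. It had 176, 180 and 279 normalized counts after sham surgery and 442, 612 and 329 after TAC (log2 fold change 1.13, adjusted p = 0.0283).

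Adamts9 had the highest fold change, with 144, 134 and 75.6 normalized counts after sham surgery and 405, 154 and 228 after TAC. The groups did not overlap, but TAC library 2 lay close to sham library 1 and the log2 fold change of 1.15 (SE 0.40) did not pass (adjusted p = 0.0642). DESeq2 gave an adjusted p of 0.0248 for it, and without TAC library 2 edgeR gave 0.0249. Adamts9 overlaps exons of A730049H05Rik and Gm15737 on the opposite strand. Judged by size instead (unadjusted edgeR p under 0.05 and a log2 change of 1 or more), Adamts9 passed, whereas Adam9 and Adamtsl4 did not reach that size. Adamts3 had 30.9, 35.4 and 24.7 after sham surgery and 13.6, 19.6 and 13.0 after TAC. All TAC values were lower, at -0.98 (SE 0.36, adjusted p = 0.0699) and -1.52 with totals (adjusted p = 0.033), and it passed without TAC library 2 (adjusted p = 0.038). Adamts2, from the same group of procollagen N-proteinases, had 122, 86.9 and 124 after sham surgery and 362, 68.5 and 66.1 after TAC. TAC library 1 alone was high, and without it the fold change of 0.58 turned to -0.78. Adamts5 and Adamts20 overlapped between the groups, with adjusted p of 0.51 and 0.496.

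**Figure D4:**
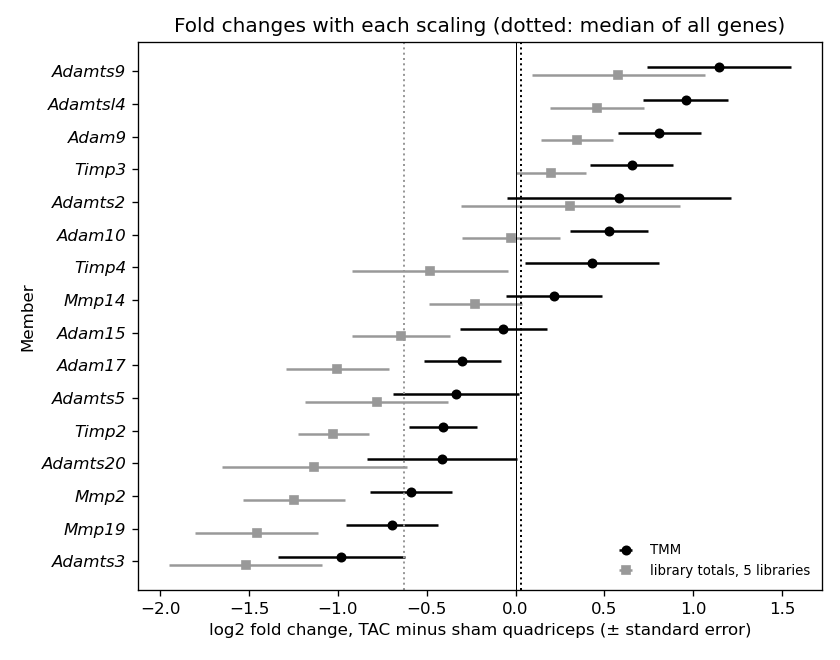
Log2 fold change, TAC minus sham quadriceps (horizontal axis, bars ± SE), for each of the 16 members with TMM (black circles, 6 libraries) and with library totals (grey squares, 5 libraries), and dotted lines at the median of all 586 genes, 0.03 and -0.63. Each member moves to the left with totals, from 1.15 to 0.58 in Adamts9 and from -0.98 to -1.52 in Adamts3, and the order of the members stays nearly the same.

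Ratios of a pair of members within a library need no scaling. The pairs were chosen after the values were seen, so they carry no test, and with 3 libraries against 3 an exact permutation test cannot give a two-sided p below 0.1. Timp3 counts were 3.98, 3.32 and 2.94 times the Timp2 counts after sham surgery and 8.04, 7.90 and 5.12 times after TAC. Mmp14 counts were 0.827, 0.817 and 0.865 of the Mmp2 counts after sham surgery and 1.62, 1.81 and 1.01 after TAC. The ratio of Adam9 to Adam17 was 3.76, 4.82 and 5.52 after sham surgery and 13.3, 10.3 and 7.05 after TAC, and that of Adam10 to Adam17 was 1.63, 1.62 and 1.58 against 3.78, 2.66 and 2.28. In all 4 pairs every TAC library was above every sham library. Timp2 to Mmp2 overlapped, at 2.70, 3.41 and 3.10 against 3.04, 4.29 and 3.37. On the same transcripts in sham heart, the ratio of Timp3 to Timp2 was 1.76, 1.81 and 1.76, that of Mmp14 to Mmp2 was 0.433, 0.461 and 0.529, and that of Adam9 to Adam17 was 1.24 in every library. All heart ratios of these 3 pairs were below the sham quadriceps ratios.

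**Figure D5:**
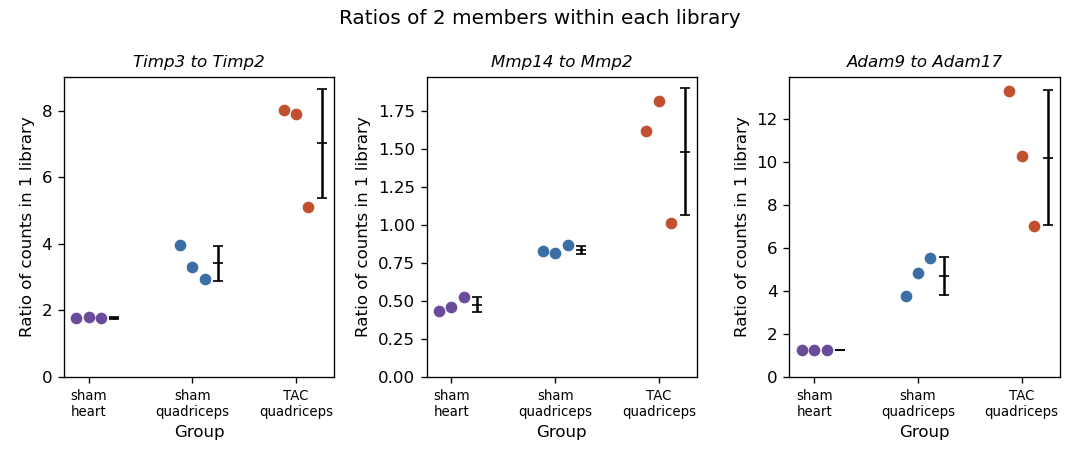
Ratio of the counts of 2 members in the same library (vertical axes from 0) in sham heart, sham quadriceps and TAC quadriceps, with 1 point per library and mean ± SD beside the points. Timp3 to Timp2, Mmp14 to Mmp2 and Adam9 to Adam17 are each lowest in heart and highest in TAC quadriceps, with means of 1.78, 3.41 and 7.02 for Timp3 to Timp2.

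The substrates and partners of the members in the TAC table are given beside them. Of 14 substrates, 9 fell and 1 rose with TMM, where 11.9% of all genes tested fell and 17.7% rose. The log2 fold changes were -3.95 for Col3a1, -3.31 for Col1a1 and -2.34 for Vcan. The values of Col3a1 were 2461, 1740 and 2732 normalized counts after sham surgery and 114, 213 and 121 after TAC. Col4a1, Col4a2, Comp and Dcn were not called. Among the partners, Pcolce, the enhancer of procollagen C-proteinase, fell by 1.01 (adjusted p = 0.0343), and Bmp1, Plat and Plau were not called. Fibroblast markers fell in 6 of 7 genes and macrophage markers in 3 of 4, and 1 of 3 tendon markers fell. These counts too are with TMM only and stand against the same 11.9% of all genes. The endothelial markers Pecam1 and Vwf rose by 0.63 and 0.83 with TMM and were not read with totals. The median of all genes was 0.03 with TMM and -0.63 with totals, so a rise of this size may depend on the scaling. The summed fibroblast markers were 6628 to 9808 normalized counts after TAC and 11084 to 14491 after sham surgery, of which Dcn alone made up 5382 to 8623 after TAC. Their part in the members' values was not tested.

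The 16 members of the TAC table can be set beside their tissue difference, though both comparisons use the same sham quadriceps libraries. For Adam9, Adam15, Adam17 and Adamts20 the tables were read on different transcripts of the gene, which for Adamts20 had 52, 28 and 53 counts in the TAC table and 93, 68 and 113 in the tissue table after sham surgery. Adam9 and Timp3 had a log2 fold change of 0.81 and 0.65 after TAC and 0.72 and 0.61 in quadriceps against heart. Mmp2 had -0.59 and -1.09, Timp2 -0.41 and -0.32, Adam17 -0.30 and -1.22 and Adamts3 -0.98 and -1.95. Adamtsl4 had 0.96 and -1.33, Adamts9 1.15 and -0.92, and Adam10 0.53 and -0.51. Adamts20 had -0.41 after TAC and 3.10 between the tissues. Whether the differences depend on each other was not tested.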

How the data were processed

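RNA sequencing libraries of sham heart, sham quadriceps and TAC quadriceps (n = 3 each) were used. Per the labels and the study's methods, the authors prepared libraries with the ScriptSeq v2 kit, used Trim Galore for trimming, STAR with mm10 for alignment and Rsubread with RefSeq transcripts for counting, with a strand setting not given in the sources used here. The authors deposited raw counts, RPKM values (counts divided by transcript length and library total) and transcript lengths in other columns, with their own fold changes and p-values, which were not used. A column of TAC library 4 (RPKM) was left unused, 1 in all, since its name matches no sample title.

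Counts were tested with edgeR 4.0.16 (R 4.3.3), the quasi-likelihood test and TMM, where at least 2 libraries had over 5 counts, with Benjamini-Hochberg adjustment over all tested. A member in the tissue comparison was read on its transcript with the highest summed count. The 30 partner, 23 substrate and cell type marker lists, and the members themselves, were chosen with earlier results of these data known. Named in the TAC comparison were all members. Named in the tissue comparison were the 8 largest rises and falls called plus a list of members named for their roles. A few others of each subgroup (Mmp1a, Mmp1b, Mmp7, Mmp10, Mmp16, Mmp17, Mmp20, Mmp24, Adam29, Adamts3, Adamts6, Adamts14, Adamts16, Adamts17, Adamtsl3 and Adamtsl5) were named after their values were seen. Near-zero members were given as ratios with exact intervals at 95% or against 3 counts. On simulated data with a log2 fold of 2, 99% of 200 changed genes were recovered among the 586 genes of the TAC comparison (1% of calls false) and 99.5% among 23869 transcripts of the tissue comparison (7.44% false). With TMM, the members' own log2 fold changes after TAC were smaller, from -0.98 in Adamts3 to 1.15 in Adamts9. Recovery of genes at such sizes was not tested. No pair of replicates was close enough to be 1 library deposited again (chi-square per degree of freedom of 7.10 or more). P-values take in both the spread between these libraries and counting error, which weighs more for members with few counts. Which of them limits the precision more was not compared. Positions and overlaps came from GENCODE vM21 on GRCm38. Alternatives were library totals, DESeq2 1.42.0, its size factors, other filters, limma 3.58.1 on log2(RPKM + 0.5, 0.1 or 1), the study's fold criterion, the replicate block and leaving out each library. The fits with totals and with limma did not use TAC library 4. A gene of the partner list is not reported here.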

Additional observations from a re-analysis of the deposited data

How the results depend on the processing

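Of the fitted values of single members under the alternatives, 207 of the TAC comparison kept direction and side of the threshold, 23 gained and 21 lost the call and 21 reversed, and in the tissue comparison these numbers were 549, 17, 62 and 25. The count of members higher after TAC, 2 with edgeR and TMM, was 0 with library totals, 0 with limma on log2(RPKM + 0.5), + 0.1 or + 1, 1 by the study's fold criterion (Adamts9, with Adam9 and Adamtsl4 below its fold) and 0 to 3 when a library was left out. The count of members lower, 0 with TMM, was 5 with totals, 1 with at least 10 counts in every library, 4 with limma at each of the 3 pseudocounts and 0 to 1 when a library was left out. With the replicate block, fitted on the 4 quadriceps libraries numbered 1 and 2, 1 member was higher (Adamtsl4), and the same 4 libraries without the block (added after the data were seen) gave 1, a different gene (Adam9). Same-numbered libraries did not deviate together (r of 0.08 and -0.16 after TAC, -0.05 to 0.05 between tissues). Only 2 of the 6 libraries of the tissue comparison were closest to their own number. Whether same-numbered heart and quadriceps libraries came from the same animal is not given by the labels. A check across different tissues cannot settle it. The replicate block gave 9 higher and 30 lower between the tissues. In the tissue comparison, 10 members were higher with TMM, 3 with totals, 2, 3 and 2 with limma at 0.5, 0.1 and 1, and 3 by the study's criterion, and 31 were lower with TMM and 9 by that criterion. Reversed log2 fold changes after TAC were those of Adam10 (totals -0.024, limma -0.0065, -0.0057 and -0.0071), Mmp14 (totals -0.23, limma -0.19, -0.22 and -0.16, and -0.082 to 0.34 when a library was left out) and Timp4 (totals -0.48, limma -0.33, -0.34 and -0.31, replicate block -0.14, the same libraries without it -0.13). Adam15 was 0.039 with the replicate block, 0.062 without it and -0.25 to 0.0012 when a library was left out. Adamts2 was -0.024 with limma at 0.1 and -0.78 to 0.95 when a library was left out, the low end without TAC library 1. Adamts20 was -0.68 to 0.0006 when a library was left out. Between the tissues, with totals and limma at 0.5, 0.1 and 1, Adam9 was -0.028, -0.035, -0.036 and -0.034, Timp3 -0.14, -0.14, -0.14 and -0.14, Timp1 -0.61, -0.36, -0.54 and -0.26, Mmp19 -0.45, -0.29, -0.43 and -0.21, Mmp9 -0.32, -0.051, -0.14 and -0.028, and Adamts8 -0.58, -0.16, -0.31 and -0.10, with -0.16 to 0.75 for Adamts8 when a library was left out. The limma fits and the totals share the scaling by library total. In the TAC comparison both also leave out TAC library 4, so the change of scaling and the change of libraries cannot be told apart there. The cause of the other changes was not tested.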
